A study of Mus musculus with 6 samples.

Results

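Chemoattractant receptors are 9 genes of the table of 55357 genes that was deposited for cultured mouse astrocytes: C3ar1, C5ar1, C5ar2, Fpr1, Fpr2, Ccr1, Ccr2, Ccrl2 and Cxcr4. They were taken by gene name, and all 9 were found in the table. The astrocytes came from the cortex of C57BL/6 embryos at embryonic day 18, and the study's methods state that the cultures were shaken before they were replated. The KE group consists of 3 cultures transfected with a plasmid in which the CMV promoter drives FLAG-BRAF KE, a form of the kinase BRAF carried in a developmental disorder of RAS/ERK signaling. The NT group consists of 3 cultures that received no plasmid, and both groups were collected after 48 hours for stranded mRNA sequencing. The comparison asks how expression of BRAF KE in astrocytes alters their transcripts. The CMV promoter is active in many cell types, so BRAF KE was not limited to astrocytes by design. Neither empty plasmid nor wild-type BRAF was transfected in the cultures analysed here, so an effect of BRAF KE and an effect of transfection cannot be told apart. The labels do not say whether the replicates came from separate animals or preparations, and p-values measure only the spread between these 6 cultures.

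Chemoattractant receptors span the membrane with a bundle of helices, bind small peptides or proteins outside the cell and, apart from atypical members, couple inside it to inhibitory G proteins. A cell that meets a gradient of the ligand turns its actin cytoskeleton toward the source and moves there. In the brain they are best known from microglia, macrophages and infiltrating neutrophils, where they steer cells to complement fragments, bacterial formyl peptides, damaged mitochondria and chemokines, while Cxcr4 is also found on neural progenitors and glia.

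The transfected gene was checked first: Braf lay between 34933 and 40978 normalized counts in the KE cultures and between 811 and 946 in the NT cultures, a log2FC of 5.37 (adjusted p = 2.1e-11, limma). The approximate depth was 24500000 to 34100000 reads per culture, with KE replicate 2 the least deep. Astrocyte markers were abundant in both groups, with 12 genes that summed to 205902 to 212360 normalized counts in KE and 148755 to 157935 in NT. Their most abundant members, the glutamate transporter Slc1a3, glutamine synthetase Glul and the filament Gfap, had log2FC values of 0.25, 0.38 and 0.87. The cultures also held transcripts of microglia and macrophages. The 24 markers of these cells summed to 128128 to 145609 normalized counts in NT and to 11697 to 15514 in KE. Of the 23 markers tested, 22 were called lower in KE (against 26.0% over all genes tested), with a median log2FC of -3.43. Their most abundant members were lysozyme Lyz2 (log2FC -4.66) and the macrophage receptor Adgre1 (-4.01). The remaining tested marker, Sall1, was not called (0.03), and Siglech was listed at 0 in all 6 cultures. In these bulk samples, fewer cells of a type and less RNA per cell cannot be told apart, and the part of these markers in the changes of the receptors was not tested, beyond the comparison relative to them given further on.

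Transcripts were lower in KE than in NT for the complement receptors C3ar1 and C5ar1, the formyl peptide receptors Fpr1 and Fpr2 and the chemokine receptor Ccr1, with differences of 9.25-fold to 21.9-fold in the ratio of the group means. Cxcr4 was lower by 1.44-fold, and Ccrl2 was not called. C5ar2 and Ccr2 had means under 10 normalized counts and were left out of the fit. Of the 7 receptors that passed this filter on low values, 6 were called lower at an adjusted p under 0.05 (limma, Benjamini-Hochberg over 15280 genes) and 0 were called higher, where 26.0% of all genes tested were lower, 25.3% were higher and 51.3% were called in either direction. The 6 called receptors were also those whose 3 KE values all lay below the 3 NT values, a separation in either direction that 59.9% of all genes tested showed. The median log2FC of the 7 receptors was -3.43, and that of all genes tested was 0.00 with a median absolute value of 0.30. All log2FC values are differences of log2(normalized count + 1), KE minus NT, which understate the change of low genes.

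**Figure D1:**
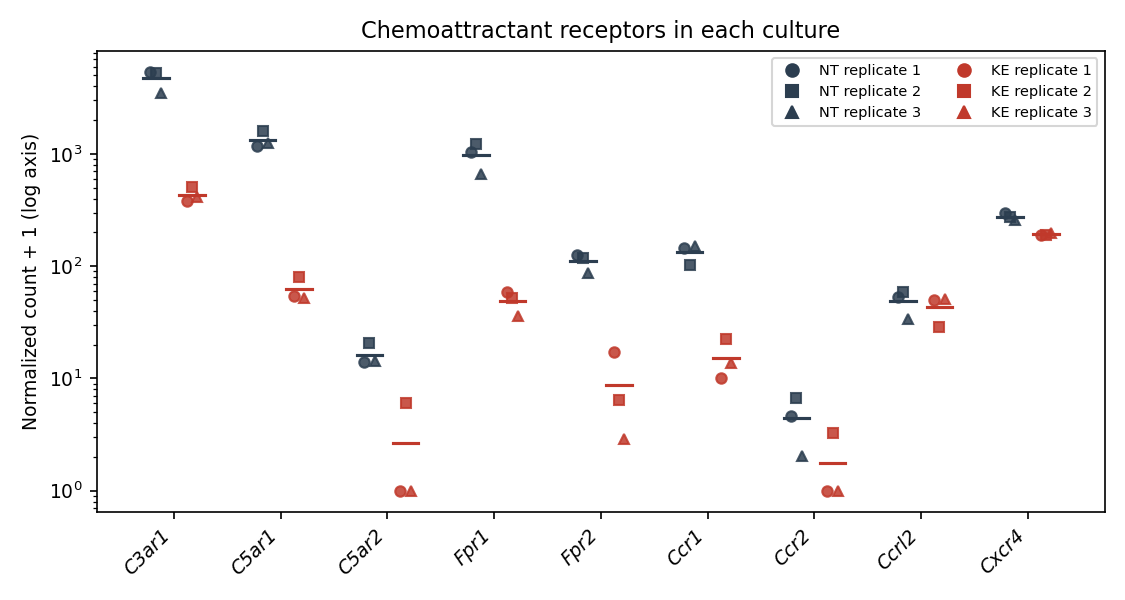
Normalized counts plus 1, on a log axis, of the 9 chemoattractant receptors in the 3 NT and the 3 KE cultures. Each point is 1 culture and each bar is a group mean. The points of C3ar1, C5ar1, Fpr1, Fpr2, Ccr1 and Cxcr4 separate by group, as do those of C5ar2 near the bottom of the axis, and those of Ccrl2 and Ccr2 overlap.

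C3ar1 (ENSMUSG00000040552) encodes the receptor for the complement fragment C3a and lies at chr6:122823393-122833122 on the minus strand of GRCm39. KE replicates 1, 2 and 3 had 380, 508 and 411 normalized counts, against 5402, 5251 and 3487 in the NT replicates 1, 2 and 3. Every KE culture was below every NT culture, and NT replicate 3 was the lowest of its group. KE averaged 433 ± 66.6 and NT 4713 ± 1064 normalized counts (SD, n = 3 each), a 10.9-fold difference. The log2FC was -3.43 (SE 0.16, 95% interval -3.77 to -3.08, adjusted p = 3.2e-08, limma), and 0.942% of all genes tested had a log2FC as low or lower. The promoter of C3ar1 is shown because it is the most abundant of the receptors in NT, and the stretch printed runs from 250 to 11 bases before the start site given by RefSeq, at chr6:122833127-122833366 of GRCm39 on the minus strand. The capitals mark, from left to right, a match to the TATA letters TATAAA, a match to AANNGAAA, which is part of the element bound by interferon regulatory factors, and a match to TGANTCA, the letters bound by AP-1. The AP-1 letters begin 22 bases before the start site.
C3ar1: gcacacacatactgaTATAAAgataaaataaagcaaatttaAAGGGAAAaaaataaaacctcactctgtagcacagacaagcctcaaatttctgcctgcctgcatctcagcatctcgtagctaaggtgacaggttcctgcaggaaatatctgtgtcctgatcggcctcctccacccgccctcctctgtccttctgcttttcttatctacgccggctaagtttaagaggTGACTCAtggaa
Of the 32851 promoter windows of 300 bases in the RefSeq table, 13.6% hold TATAAA, 23.9% hold AANNGAAA and 7.81% hold TGANTCA on either strand. A match of letters is a description and not a binding site.

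C5ar1 (ENSMUSG00000049130) encodes the receptor through which the complement fragment C5a attracts and activates myeloid cells, and it lies at chr7:15980668-15993465 on the minus strand. The KE replicates had 53.5, 78.9 and 51.4 normalized counts, against 1171, 1610 and 1244 in the NT replicates, in the same order. The groups were far apart, with replicate 2 the highest in each. The KE mean was 61.3 ± 15.4 and the NT mean 1341 ± 235 (SD, n = 3 each), a 21.9-fold difference that was the largest among the tested receptors. The log2FC was -4.44 (SE 0.17, 95% interval -4.83 to -4.06, adjusted p = 1.5e-08, limma), the 14th lowest of the 15280 genes tested.

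C5ar2 (ENSMUSG00000074361), the second C5a receptor, which does not couple to G proteins in the usual way, is the neighbour of C5ar1 on the same strand at chr7:15968503-15978121, with 2.546 kb between the gene spans. The table lists it at 0, 5.04 and 0 normalized counts in KE and at 13.0, 19.5 and 13.2 in NT. The KE values were all below the NT values, and with 0 in KE replicates 1 and 3 no fold is given. C5ar2 missed the filter on low values, and in a fit without that filter it was called lower (adjusted p = 0.0018, limma). In NT the level of C5ar1 per kilobase of exon was 152 ± 10.01 (SD, n = 3) times that of C5ar2, so that nearly all transcripts of this pair came from C5ar1. The promoters of this pair share the letters AGGAAGT, the core bound by PU.1 and other ETS factors, which 9.35% of all promoter windows hold on either strand and which none of the other 7 receptors holds in its window. The match is shown in capitals with the bases around it, in the direction of the genes. In C5ar1 it reads on the opposite strand and begins 190 and 72 bases before the RefSeq start site (chr7:15993435-15993464 and chr7:15993317-15993346), and in C5ar2 it begins 100 bases before it (chr7:15978161-15978190).
C5ar1, farther from the start: gaaactccaaaACTTCCTtcagaagaggta
C5ar1, nearer to the start: tggggccagagACTTCCTtccttttccaag
C5ar2: gtgagcaggaaAGGAAGTgggctgagagct
The Gencode start of C5ar1 lies 202 bases farther upstream than that of RefSeq, so both C5ar1 stretches fall within the gene span of Gencode.

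Fpr1 (ENSMUSG00000045551) encodes the high-affinity receptor for formylated peptides from bacteria and mitochondria and lies at chr17:18096733-18104202 on the minus strand. Normalized counts of 57.8, 51.3 and 35.3 in KE faced 1047, 1218 and 656 in NT. Every KE culture was below every NT culture, and replicate 3 was the lowest in both groups. KE averaged 48.1 ± 11.6 and NT 974 ± 288 (SD, n = 3 each), a 20.2-fold difference. The log2FC was -4.29 (SE 0.23, 95% interval -4.81 to -3.78, adjusted p = 1.1e-07, limma).

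Fpr2 (ENSMUSG00000052270) encodes a receptor of wider specificity that binds formyl peptides, serum amyloid A and annexin A1. It lies at chr17:18108070-18114215 on the plus strand, 3.867 kb from Fpr1, and its span is overlapped on the same strand by Fpr3, which was listed at 0 in all 6 cultures. It had 16.1, 5.43 and 1.87 normalized counts in KE and 126, 118 and 86.0 in NT. The groups did not overlap, and the KE values were low and spread widely. KE averaged 7.80 ± 7.40 and NT 110 ± 21.0 (SD, n = 3 each), with a log2FC of -4.01 (SE 0.52, 95% interval -5.16 to -2.85, adjusted p = 8.3e-05, limma). The interval of Fpr2 was the widest of the 7 tested receptors, and with a KE mean under 10 it passed the filter on low values through its NT cultures. Per kilobase of exon, Fpr1 exceeded Fpr2 by 8.69 ± 1.38 times (SD, n = 3) in NT and by 3.56, 9.37 and 18.7 times in the 3 KE cultures, so the ratios of the groups overlapped. Fpr-rs3, Fpr-rs4, Fpr-rs6 and Fpr-rs7, the remaining formyl peptide receptor genes examined, were listed at 0 throughout.

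Ccr1 (ENSMUSG00000025804) encodes a receptor for inflammatory CC chemokines such as Ccl3, Ccl5 and Ccl9 and lies at chr9:123762161-123768734 on the minus strand. Levels were 9.04, 21.3 and 12.7 normalized counts in KE and 145, 101 and 151 in NT. Every KE culture was below every NT culture, and replicate 2 was the highest of the KE cultures and the lowest of the NT cultures. KE averaged 14.3 ± 6.27 and NT 133 ± 27.0 (SD, n = 3 each), a 9.25-fold difference. The log2FC was -3.18 (SE 0.31, 95% interval -3.85 to -2.51, adjusted p = 8e-06, limma).

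Ccr2 (ENSMUSG00000049103), the receptor for Ccl2 that marks circulating inflammatory monocytes, lies in the same cluster of chemokine receptor genes at chr9:123901982-123913594 on the plus strand. It was listed at 0, 2.29 and 0 normalized counts in KE and at 3.63, 5.64 and 1.04 in NT. The groups overlapped, and at the floor of the measurement no difference was detectable, also in the fit without the filter (adjusted p = 0.098, limma). Of the other chemokine receptor genes in this stretch of chromosome 9, Xcr1, Ccr1l1 and Ccr3 had group means from 0 to 4.28 normalized counts, so Ccr1 was the only gene from Xcr1 to Ccr2 with a mean above 10.

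Ccrl2 (ENSMUSG00000043953) encodes an atypical receptor that binds chemerin and presents it to other cells without signaling through G proteins. It lies at chr9:110883554-110886591 on the minus strand, away from the chemokine receptor cluster. The KE replicates had 49.5, 27.7 and 49.7 normalized counts and the NT replicates 52.5, 58.0 and 32.7. The groups overlapped, with KE replicate 2 and NT replicate 3 low in their groups. KE averaged 42.3 ± 12.6 and NT 47.7 ± 13.3 (SD, n = 3 each), and the log2FC was -0.18 (SE 0.30, 95% interval -0.84 to 0.48, adjusted p = 0.65, limma). The interval leaves room for a change of less than 1 on the log2 scale in either direction, and it does not reach the intervals of C3ar1, C5ar1, Fpr1, Fpr2 or Ccr1. The promoter of Ccrl2 is shown because this receptor held its level apart from those 5. The stretch runs from 250 to 11 bases before the first of its 3 RefSeq start sites, at chr9:110886597-110886836 on the minus strand, and the capitals mark the letters GGACTTTCC, a form of the element bound by NF-kappaB, which begin 68 bases before that site.
Ccrl2: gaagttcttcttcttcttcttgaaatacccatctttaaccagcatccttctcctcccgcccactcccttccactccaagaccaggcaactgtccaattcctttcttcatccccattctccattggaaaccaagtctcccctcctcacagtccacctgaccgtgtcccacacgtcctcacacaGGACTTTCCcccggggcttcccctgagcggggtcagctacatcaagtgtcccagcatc
These letters are in 0.344% of all promoter windows on either strand, and Ccrl2 was the only receptor of the 9 with a match.

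Cxcr4 (ENSMUSG00000045382) encodes the receptor for Cxcl12, which guides neural progenitors and retains leukocytes in tissues, and lies at chr1:128515936-128520044 on the minus strand. Normalized counts were 189, 187 and 198 in KE, with 298, 272 and 256 in NT. All KE cultures were below all NT cultures, with little spread within either group. KE averaged 191 ± 5.89 and NT 275 ± 21.6 (SD, n = 3 each), a 1.44-fold difference. The log2FC was -0.52 (SE 0.11, 95% interval -0.77 to -0.27, adjusted p = 0.0026, limma), and 15.1% of all genes tested had a log2FC as low or lower. The promoter of Cxcr4 is shown because its window of 300 bases is the richest in G and C of the 12 receptor windows, with 59.3%. In the stretch printed, 62.1% of the bases are G or C, against 44.6% in that of C3ar1. It runs from 250 to 11 bases before the RefSeq start site, at chr1:128520047-128520286 on the minus strand, and the capitals mark overlapping matches to TATAAA on both strands, 32 and 30 bases before the start site.
Cxcr4: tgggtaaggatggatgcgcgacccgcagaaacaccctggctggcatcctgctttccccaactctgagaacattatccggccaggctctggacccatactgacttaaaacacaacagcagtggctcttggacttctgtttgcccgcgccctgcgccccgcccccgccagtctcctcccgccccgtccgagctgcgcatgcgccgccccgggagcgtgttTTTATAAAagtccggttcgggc
The last motif searched, TTGCNNAA of C/EBP factors, is in 10.8% of all promoter windows and, among the receptors, in that of C5ar2. Of the motifs already named, AANNGAAA is also in the windows of Ccr1 and Fpr2 and TATAAA in those of Fpr1 and Fpr2, and the window of Ccr2 holds none of the 6.

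**Figure D2:**
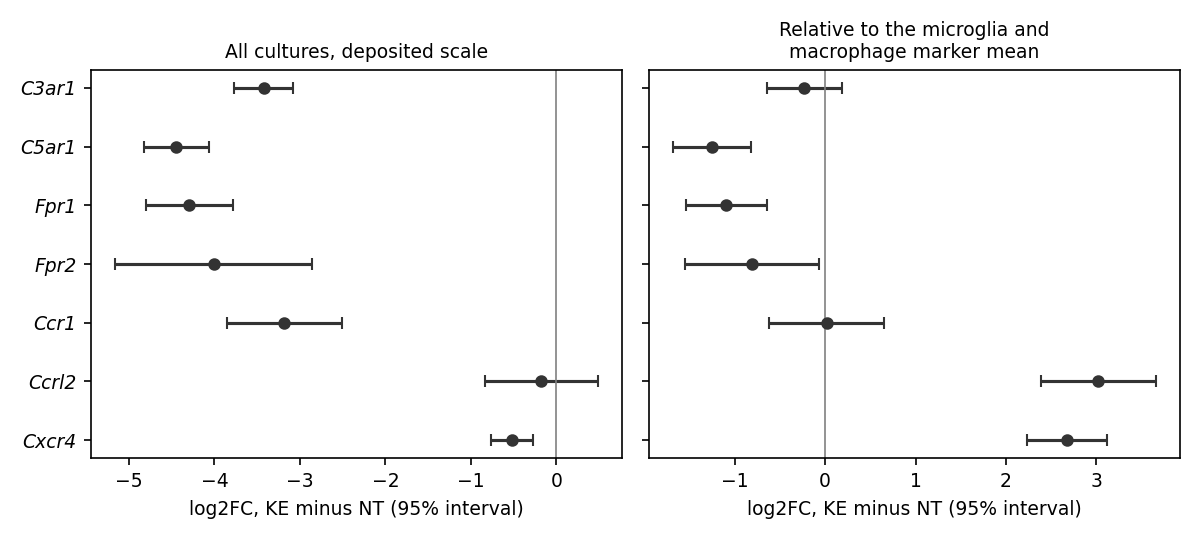
Log2FC of the 7 tested receptors, KE minus NT, with 95% intervals (limma). The intervals of the relative scale, on the right, take the spread of the marker mean as known. On the left, on the deposited scale, 6 intervals lie below 0 and that of Ccrl2 spans 0; on the right, after the mean log2 level of 23 microglia and macrophage markers was subtracted in each culture, Ccrl2 and Cxcr4 lie above 0, C3ar1 and Ccr1 span it, and C5ar1, Fpr1 and Fpr2 lie below it.

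The receptors were next set against the markers of the cells best known for them. The mean log2(normalized count + 1) of the 23 tested microglia and macrophage markers was 7.84, 8.28 and 7.78 in KE replicates 1 to 3 and 11.25, 11.25 and 11.002 in NT replicates 1 to 3, a difference of -3.20, and this mean was subtracted from every gene in its culture. On this relative scale a gene that stayed level appears higher in KE, and 97.8% of all genes tested were called higher and 0.458% lower. Among the 7 receptors, 2 were called higher and 3 lower. The spread of the marker mean between cultures is shared by every gene on this scale. The fit took that shared spread as known (SE 0.21 for C3ar1). The p-values therefore overstate the certainty that 3 cultures against 3 can give, and intervals can be too narrow. C3ar1, with a relative log2FC of -0.23 (95% interval -0.64 to 0.18, adjusted p = 0.28, limma), and Ccr1, with 0.02 (95% interval -0.62 to 0.66, adjusted p = 0.96, limma), were not called. C5ar1 differed from the marker mean by a further -1.25 (95% interval -1.68 to -0.81, adjusted p = 1.7e-08, limma) and Fpr1 by a further -1.09 (95% interval -1.54 to -0.65, adjusted p = 1.7e-06, limma). In both genes the 3 KE cultures lay below the 3 NT cultures on this scale. Single markers ranged from -1.46 (Lyz2) to 3.23 (Sall1) on it, so both values lay within the markers' own range, above those of Lyz2 and Mrc1. Fpr2 had a relative log2FC of -0.81 (95% interval -1.55 to -0.07, adjusted p = 0.033, limma), with KE values of -3.75, -5.59 and -6.26 against -4.26, -4.36 and -4.56 in NT, so its groups overlapped, and the call was lost in 11 of 16 alternatives. Ccrl2 and Cxcr4 had relative log2FC values of 3.02 (95% interval 2.39 to 3.65) and 2.68 (95% interval 2.24 to 3.12), close to the size of the markers' own difference. The relative scale is a scaling by markers and no count of cells.

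Levels of different receptors were compared as normalized counts per kilobase of exon. In NT the order was C3ar1 with 941, Fpr1 with 735, C5ar1 with 522, Cxcr4 with 151, Fpr2 with 83.7, Ccr1 with 46.7, Ccrl2 with 18.2, C5ar2 with 3.46 and Ccr2 with 0.508. The ranges of C3ar1 and Fpr1 overlapped, as did those of Fpr1 and C5ar1, and no other neighbours in this order did. In KE the order was Cxcr4 with 105, C3ar1 with 86.4, Fpr1 with 36.3, C5ar1 with 23.8, Ccrl2 with 16.2, Fpr2 with 5.94 and Ccr1 with 5.05, and C5ar2 and Ccr2 were near the floor. In this order Fpr1 and C5ar1 overlapped, as did Ccrl2 and Fpr2, and Fpr2 and Ccr1. Cxcr4 thus led the order in KE and stood behind C3ar1, Fpr1 and C5ar1 in NT, although its own level was lower in KE.

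The summed level of the 9 receptors per kilobase averaged 279 ± 17.5 in KE against 2502 ± 493 in NT (SD, n = 3 each), an 8.96-fold difference. The share of Cxcr4 in this sum was 37.8% ± 3.47 in KE and 6.17% ± 1.02 in NT, and that of Ccrl2 was 5.86% ± 2.00 and 0.720% ± 0.0687 (SD, n = 3 each). C3ar1 held 30.86% ± 3.44 in KE and 37.5% ± 2.67 in NT, Fpr1 13.0% ± 2.76 and 29.0% ± 3.25, and C5ar1 8.48% ± 1.61 and 21.2% ± 3.86 (SD, n = 3 each). The KE and NT ranges did not overlap for any of these 5 shares. Within the complement receptors, C3ar1 exceeded C5ar1 per kilobase by 3.64, 3.30 and 4.10 times in KE and by 2.37, 1.67 and 1.44 times in NT, so that the balance moved toward C3ar1 in every KE culture. These shares follow from the levels already given and were not tested.

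**Figure D3:**
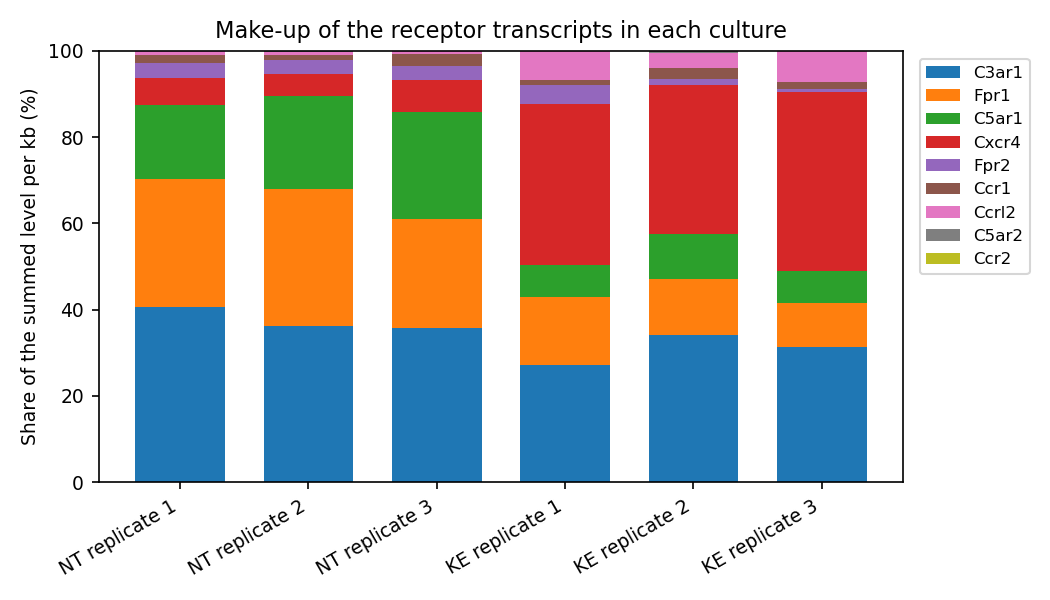
Share, in percent, of each receptor in the summed level per kilobase of exon of the 9 receptors, with 1 bar for each of the 6 cultures. Cxcr4 makes up 34.6% to 41.5% of the KE bars and 5.15% to 7.19% of the NT bars, while C5ar1 and Fpr1 are narrower in KE.

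The ligands of these receptors did not move as a group. Of 18 ligand genes, 16 were tested, of which 4 were called higher and 6 lower in KE (against 25.3% and 26.0% over all genes tested) and 6 were not called, with a median log2FC of -0.19. C3, the precursor of the C3a that C3ar1 binds, was the most abundant, at 104271 ± 1580 normalized counts in KE and 99308 ± 8513 in NT (SD, n = 3 each), and was not called (log2FC 0.07, adjusted p = 0.45, limma). Hc, the precursor of C5a, lay between 15.8 and 27.9 in KE and between 16.7 and 53.3 in NT and was not called.

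Among the CC chemokines listed as ligands of Ccr1 and Ccr2, transcripts moved in both directions. Ccl7 was higher, at 3205, 3170 and 3290 normalized counts in KE and 1230, 1208 and 1082 in NT (log2FC 1.46, adjusted p = 3e-08, limma). Ccl5 (log2FC 1.33, adjusted p = 0.00045) and Ccl2 (log2FC 1.00, adjusted p = 4.7e-06), the monocyte attractant that binds Ccr2, were also higher. Ccl6 was lower, at 20.7, 18.3 and 19.5 in KE and 669, 347 and 487 in NT (log2FC -4.56, adjusted p = 5.1e-08, limma). Ccl9 (-4.21), Ccl12 (-4.10), Ccl3 (-3.36) and Ccl4 (-2.37) were lower as well, and no KE value of these 5 genes reached an NT value. Ccl2 and Ccl7, ligands of Ccr2, and Ccl12, a further one in the mouse, therefore differed in direction.

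Ligands of Fpr2 differed too. Annexin A1, Anxa1, which limits inflammation, was higher, at 1057, 1013 and 1073 in KE and 621, 878 and 560 in NT (log2FC 0.64, adjusted p = 0.0026, limma), and the acute phase protein Saa3 was lower (log2FC -1.26, adjusted p = 5.8e-06, limma). Cxcl12, which binds Cxcr4, had means of 2309 ± 115 in KE and 2499 ± 157 in NT (SD, n = 3 each) and was not called (log2FC -0.11, adjusted p = 0.18, limma). Mif, a further ligand of Cxcr4 (0.02), and Rarres2, which encodes the chemerin bound by Ccrl2 (0.10), were not called either.

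**Figure D4:**
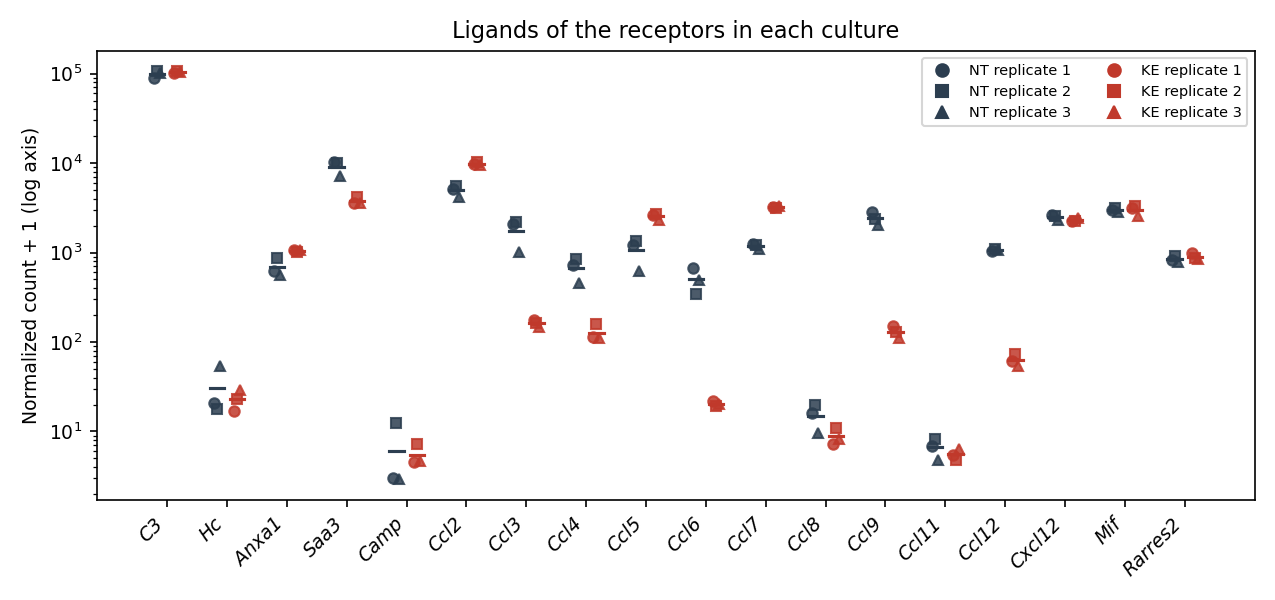
Normalized counts plus 1, on a log axis, of the 18 ligand genes in the 3 NT and the 3 KE cultures. Each point is 1 culture and each bar is a group mean. Ccl2, Ccl5, Ccl7 and Anxa1 are higher in KE, Ccl3, Ccl4, Ccl6, Ccl9, Ccl12 and Saa3 are lower, and C3 is at the top in both groups.

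Of 32 other chemoattractant receptor genes, 9 were listed at 0 in all cultures and 10 were tested, of which 1 was called higher and 5 lower (against 25.3% and 26.0% over all genes tested), with a median log2FC of -1.31. Cx3cr1, the fractalkine receptor of microglia, was at 181, 305 and 170 normalized counts in KE and 3266, 3505 and 3237 in NT (log2FC -3.97, adjusted p = 2.7e-08, limma), and it is also 1 of the microglia and macrophage markers. Gpr183, the oxysterol receptor (-4.40), Ptafr, the receptor for platelet-activating factor (-4.20), and Cmklr1, the signaling receptor for chemerin (-2.68), were lower with no overlap between groups. Ccrl2, which binds the same ligand as Cmklr1, was not called, and the difference between them was not tested. Ltb4r2, a leukotriene B4 receptor of low affinity, was higher, at 57.4, 70.1 and 63.8 in KE and 16.8, 31.2 and 39.6 in NT (log2FC 1.18, adjusted p = 0.0069, limma). The atypical receptors Ackr3 (-0.09) and Ackr1 (-0.30) were not called.

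Of 32 genes that carry the signal of these receptors inside the cell, 30 were tested, of which 23 were called lower and 3 higher (against 26.0% and 25.3% over all genes tested), with a median log2FC of -0.67. The lowest log2FC values were those of genes known from leukocytes: Dock2, which activates Rac during migration (-3.85), Pik3cg, the catalytic subunit of PI3K gamma (-3.83), the small GTPase Rac2 (-3.70), Pik3r6, a regulatory subunit of PI3K gamma (-3.34), and the exchange factor Vav1 (-3.20). Dock2 was at 75.04, 107 and 85.1 normalized counts in KE and 1342, 1443 and 1093 in NT, with no overlap. Rgs16, which shortens G protein signals, was higher, at 6436, 6489 and 6279 in KE and 3482, 3562 and 3537 in NT (log2FC 0.86, adjusted p = 1.9e-07, limma). The G protein subunits Gnb2 (0.18) and Gnai2 (0.17), which most cells express, were called higher by small amounts. Without single cultures these 2 calls were lost: that of Gnb2 without any 1 of the 6 cultures but NT replicate 3, and that of Gnai2 without KE replicate 1, KE replicate 2, NT replicate 1 or NT replicate 3. Gnb1 (-0.12) and Prex1 (0.09) were not called.

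**Figure D5:**
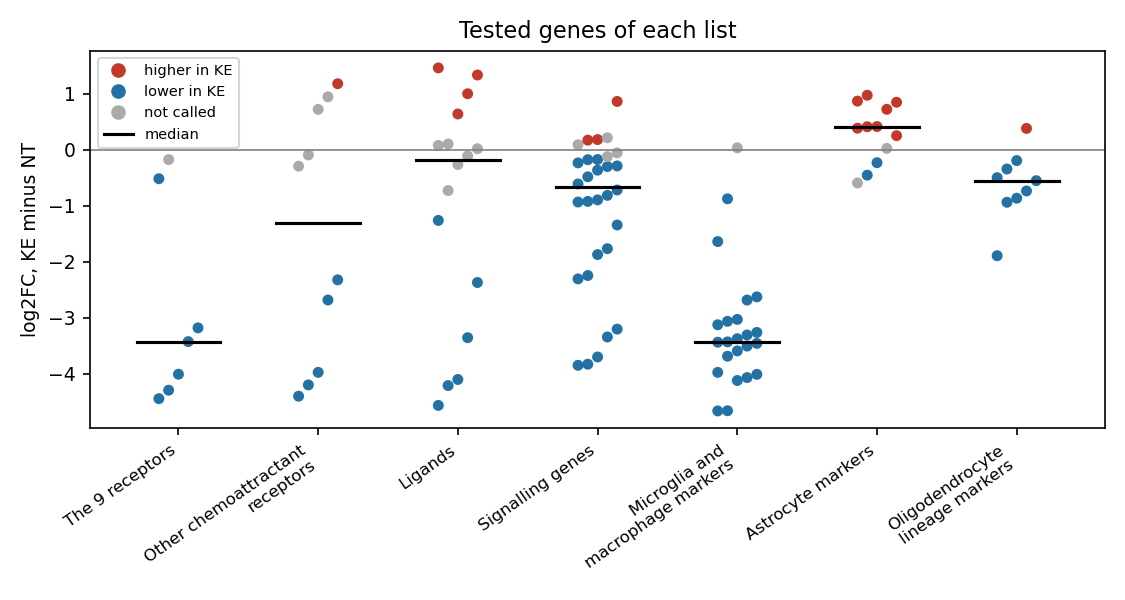
Log2FC, KE minus NT, of the tested genes of each list. Each point is 1 gene, colored by its call (limma, adjusted p under 0.05), and each bar is the median of the tested genes of the list. The 7 tested receptors have a median of -3.43, as do the microglia and macrophage markers, and the ligands lie on both sides of 0.

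Markers of neutrophils and lymphocytes, which also carry such receptors, were low. The 10 neutrophil markers summed to 6.17 to 14.1 normalized counts in KE and 14.7 to 21.1 in NT, none reached the filter, and Ly6g, S100a9, Mpo, Elane, Ngp and Retnlg were listed at 0 throughout. The most abundant were S100a8, listed at 0 in KE with a mean of 12.8 in NT, Camp and Ltf. The 8 T and B lymphocyte markers summed to 1.80 to 3.62 in KE and 4.77 to 6.16 in NT, with Cd79a and Cd4 among the highest, and 4 were at 0 throughout. The other lists had larger sums in both groups, of 29785 to 34870 in KE and 38132 to 38408 in NT for the oligodendrocyte lineage, 6842 to 7317 and 8880 to 9595 for neurons, and 880 to 924 and 788 to 796 for endothelial cells and pericytes. Of 9 tested oligodendrocyte lineage markers, 8 were called lower (4 to 7 without single cultures) and 1 higher, with a median log2FC of -0.55, and the most abundant were Olig1 (-0.20), Olig2 (-0.55) and Cnp (0.38). Of 7 tested neuron markers, 2 were lower and 1 was higher, and the most abundant were Map2 (-0.51), Stmn2 (-0.58) and Tubb3 (0.43). Of 4 tested markers of endothelial cells and pericytes, 1 was lower and 1 higher, and the most abundant were Pdgfrb (-0.21), Rgs5 (0.79) and Pecam1 (-0.86). The median log2FC of the 12 astrocyte markers was 0.40, with 8 called higher and 2 lower. Over all genes tested, 26.0% were called lower and 25.3% higher. Counts as small as those of the neuron and of the endothelial and pericyte markers do not set these lists apart from those shares.

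The genes whose levels followed the 3 most abundant receptors most closely were found by Pearson's r of the log2 levels over the 6 cultures, among 12068 genes with a mean of at least 100. For C3ar1 these were the B cell and macrophage surface protein Cd180, the lipid kinase Pip4k2a and the scavenger receptor Marco. For C5ar1 they were the transporter Abcc3, the myeloid transcription factor Irf8 and Tmsb10, a protein that binds actin. For Fpr1 they included Aoah, an enzyme that inactivates endotoxin, and Rsrc1. These values of r were at least 0.999, and since the 6 cultures form 2 groups, they describe the difference between KE and NT together with small deviations. The sizes of the changes differed, from a log2FC of -6.90 for Marco to -0.20 for Rsrc1, so a high r was not a like fold.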

How the data were processed

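RNA from 3 KE and 3 NT cultures was sequenced with a stranded mRNA kit. Per the labels, reads were processed with Trim Galore, STAR, Salmon and DESeq2. The authors deposited, for each gene and culture, a normalized signal, namely Salmon gene counts divided by size factors. These are called normalized counts here. The labels name a human build, whereas the gene identifiers are those of mouse and the supplemental methods give GRCm39 for mouse samples. Those methods also mention batches without naming them, so none was modelled. No culture and no column was left out. Totals were evened out by normalization, so depth was approximated from the worth of 1 read, taken as the most frequent low value. In no culture were more than 77.5% of the low values whole multiples of it (tolerance 0.1). Whole reads were therefore not recovered and no count test was run, and precision rests on the spread between cultures.

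A linear model with a single factor, the group, was fitted to log2(normalized count + 1) by limma 3.58.1 (R 4.3.3), allowing the variance to depend on the level. Genes averaging under 10 normalized counts were not tested. P-values were two-sided and adjusted by Benjamini-Hochberg over all 15280 genes tested, with calls at an adjusted p under 0.05. The relative comparison used the same fit after the mean log2 level of the microglia and macrophage markers was subtracted. Its p-values take the spread of that mean as known and overstate the certainty. The fit was tested on simulated data. Members and gene lists were chosen with earlier results of these data known. Genes named from the lists were, for pathways, up to 5 called genes with the largest rise and 5 with the largest fall and the 2 most abundant not called, and for markers the 3 most abundant. Sall1, Siglech, Ccr3, Xcr1, Ccr1l1, the Fpr-rs genes and ligands and markers named beyond that were chosen after their values were seen. Some genes that this rule selects are counted with their lists but not reported singly.

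Gene positions and exon lengths came from Gencode vM39 on GRCm39. Promoter windows, from 250 bases before to 50 after a start, came from a RefSeq table of GRCm38.p6, were found for all 9 receptors (12 windows), and each matched GRCm39 at a single place. Alternatives were other pseudocounts, filters, scalings and marker sets, limma without the trend, the replicate number as a block, and leaving out each culture.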

Additional observations from a re-analysis of the deposited data

How the results depend on the processing

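The 7 tested receptors kept their direction or stayed uncalled in all alternatives of the KE and NT comparison. The log2FC ranged from -3.63 to -3.31 for C3ar1, -4.64 to -4.31 for C5ar1, -4.55 to -4.09 for Fpr1, -4.67 to -3.31 for Fpr2, -3.49 to -2.86 for Ccr1 and -0.57 to -0.41 for Cxcr4, whose adjusted p (limma) reached at most 0.013. Ccrl2 ranged from -0.42 to 0.09, and with a mean of at least 50 it was not tested. C5ar2 entered the fit with no filter and without KE replicate 1 or KE replicate 3, and then 7 receptors were called lower in place of 6. Leaving out a KE culture at 0 lifted its mean over the filter through the NT values, so those calls add no support. Relative to the microglia and macrophage markers, the call of Fpr2 was lost with a pseudocount of 5 (-0.15, adjusted p = 0.63), no filter (-0.81, 0.057), a mean of at least 50 (-0.81, 0.051), quantile normalization (-0.70, 0.069), the 6 highest markers (-0.55, 0.16) and the markers without Sall1 (-0.66, 0.085), the last chosen after seeing the data. Leaving out single cultures gave it -1.54 to -0.28, lost in each case but that of KE replicate 1. Over all genes, 25049 were higher relative to the markers with no filter, and 37 were lower with the 6 highest markers and 45 to 82 without single cultures (45 without NT replicate 1 or NT replicate 2), against 70. With a mean of at least 50, 1 receptor was higher relative to the markers, 0 other receptors were higher, and the median log2FC of the endothelial and pericyte markers was 0.29, against -0.35. Without the variance trend, 2 other receptors and 1 signalling gene were higher, and with no filter 1 signalling gene was higher. Without single cultures, 1 to 2 other receptors (2 without KE replicate 2) and 1 to 2 signalling genes (1 without KE replicate 1 or NT replicate 1) were higher. The neuron marker median, -0.07, was 0.062 under quantile normalization and -0.24 to 0.15 without single cultures, above 0 without KE replicate 2 or NT replicate 3. The shifts with a mean of at least 50 arose because Ltb4r2, Ccrl2, Pecam1 and the endothelial marker Kdr had lower means and left the fit. The causes of the other shifts were not tested. Of 45 genes named from lists, Braf included, 36 kept their call and direction under every alternative tried on them. Among the rest, the calls of Gnai2, Gnb2, Olig1, Pecam1 and Slc1a3 were lost under at least 1, and those of Ackr1, Gnb1 and Pdgfrb gained under 1. Single cultures decided Olig1 (lost without any 1 but KE replicate 2), Pecam1 (lost without NT replicate 1 or NT replicate 2) and Pdgfrb (called without NT replicate 1, -0.32). Same-numbered cultures deviated together only weakly (r = 0.059, 0.066 and 0.065 across genes), under the 0.1 required, although each culture correlated best with its own number, so the numbers were not taken as pairs. The replicate block gave 4079 genes lower and 3967 higher, and called the same 6 receptors lower. The KE values of C5ar2, Ccr2 and Fpr2 lay between 0 and 16.1 normalized counts, so few reads stand behind each of them.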
